A study of Mus musculus with 6 samples.

Results

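The acute response to lipopolysaccharide (LPS) in mouse peritoneal macrophages that lack the microRNAs miR-221 and miR-222 was described from 2 RNA-seq libraries out of 6 in the series. One was made from untreated knockout cells and is called KO naive, and the other from knockout cells given 1000 ng/ml LPS for 4 h and is called KO LPS. The knockout is labelled miR-221/222 -/Y on a C57Bl/6 background, which marks hemizygous males for an X-linked deletion. Wildtype C57Bl/6 cells, untreated (WT naive) or given the same LPS for the same time (WT LPS), were set beside them. The remaining libraries, of cells primed with LPS and given it again, were not analysed here. Of 23699 gene rows in each table, 10162 were compared: those with a valid expression estimate in both knockout libraries, a symbol listed at 1 locus, and at least 2 FPKM (fragment counts divided by transcript length and by library size) in either library. The row just inside that minimum was Gspt2, at 2.001 FPKM in KO naive, and the row just outside it was Gm6402, at 1.998 FPKM in KO naive.

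Each group had 1 library, so no difference below has a replicate check and none carries a p-value. The design text speaks of triplicates, and whether the libraries were pooled from several animals or cultures is not given in the sources used here. A gene is called higher or lower when its FPKM + 1 differed at least 2-fold between KO LPS and KO naive, and all ratios are log2 ratios of FPKM + 1, LPS over naive, unless said otherwise. Ranges in brackets come from the interval that the authors deposited for each FPKM, which covers counting error only.

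LPS, a component of the outer membrane of gram-negative bacteria, is bound by CD14 and by MD-2 (gene Ly96) on Toll-like receptor 4. One branch of the signal runs through MyD88 to NF-kappaB and AP-1 and drives cytokine genes, and another runs through TRIF (gene Ticam1) to IRF3 and interferon beta, which then acts back on the cell through its own receptor. miR-221 and miR-222 are made from neighbouring hairpins on the X chromosome and pair with target mRNAs through a short seed near their 5′ end.

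The deleted microRNAs are shown because they define the genotype, with the seed (bases 2 to 8) in capitals. Sequences are those of RefSeq for GRCm38.p6, minus strand.
miR-221-3p: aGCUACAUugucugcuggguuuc
miR-222-3p: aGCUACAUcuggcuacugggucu
miR-221-5p: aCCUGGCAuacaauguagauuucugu
The -3p strands of the pair have the same seed, GCUACAU, and differ after it. Both hairpin genes, Mir221 and Mir222, were listed at 0 FPKM in the 2 knockout libraries and also in the 2 wildtype libraries. Poly-A mRNA libraries do not capture mature microRNAs, so the genotype could not be checked from these rows.

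The cells carried macrophage transcripts. In KO naive, Lyz2 (lysozyme) stood at 35949 FPKM, Cd68 at 1560 FPKM, Csf1r (the receptor of macrophage colony-stimulating factor) at 721.9 FPKM and Emr1 (F4/80) at 393 FPKM. Of 18 markers of large resident peritoneal macrophages, 13 read lower and 5 higher in KO naive than in WT naive, and their summed level was 1907 and 2235 FPKM. The complement receptor Vsig4 read 1.87 FPKM in KO naive against 158 FPKM in WT naive, and coagulation factor F5 3.39 against 47.4 FPKM, both defining markers. The lineage factor Gata6 read 4.88 FPKM in KO naive and 13.05 FPKM in WT naive. Another resident marker, Timd4, was among the 5 that ran the other way, with 108 FPKM in KO naive and 35.6 FPKM in WT naive. In bulk RNA, fewer cells of a type and less RNA per cell cannot be told apart.

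Of the 15 genes with the highest KO ratios, 11 had a promoter entry and were searched for 3 short motifs, and the promoters shown next are those of the 4 genes with at least 1 match. The other 7 genes searched, among them Ifnb1, Ifit2 and Oasl1, held none of these letters in this window. The motifs were a kappaB core (GGGANTTTC), an interferon-stimulated response element core (ISRE, GAAANNGAA) and an AP-1 element (TGANTCA), read on both strands in the 250 bases before the RefSeq start site, with matches in capitals. Sequences are from RefSeq, GRCm38.p6, written 5′ to 3′ on the gene's strand.
Cxcl10, chr5:92348890-92349139, minus strand: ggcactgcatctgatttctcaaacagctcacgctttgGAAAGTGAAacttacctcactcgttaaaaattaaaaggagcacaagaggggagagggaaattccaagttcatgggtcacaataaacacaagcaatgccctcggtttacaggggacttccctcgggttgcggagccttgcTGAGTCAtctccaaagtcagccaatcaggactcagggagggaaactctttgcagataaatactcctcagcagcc
Il6, chr5:30012864-30013113, plus strand: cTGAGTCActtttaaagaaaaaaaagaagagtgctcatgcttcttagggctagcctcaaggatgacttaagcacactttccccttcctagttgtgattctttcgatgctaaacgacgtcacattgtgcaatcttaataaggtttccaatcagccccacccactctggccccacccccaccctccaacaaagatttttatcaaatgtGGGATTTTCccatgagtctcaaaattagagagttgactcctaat
Rsad2, chr12:26456453-26456702, minus strand: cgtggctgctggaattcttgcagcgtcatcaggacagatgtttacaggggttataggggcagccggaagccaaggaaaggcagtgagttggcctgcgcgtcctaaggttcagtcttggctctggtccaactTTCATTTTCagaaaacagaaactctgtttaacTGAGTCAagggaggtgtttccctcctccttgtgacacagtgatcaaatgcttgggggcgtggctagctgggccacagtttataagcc
Ifit1, chr19:34640639-34640888, plus strand: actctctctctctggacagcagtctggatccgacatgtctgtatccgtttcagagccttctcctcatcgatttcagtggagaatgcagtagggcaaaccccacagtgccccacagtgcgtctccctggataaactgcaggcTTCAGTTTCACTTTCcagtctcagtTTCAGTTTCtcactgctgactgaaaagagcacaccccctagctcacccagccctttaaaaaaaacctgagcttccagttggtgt
Cxcl10 held an ISRE core that began 213 bases before the start site and an AP-1 element at 74 bases. Il6 held a kappaB core at 44 bases and an AP-1 element at 249 bases. Rsad2 held an ISRE core at 119 bases and an AP-1 element at 87 bases, and Ifit1 held 3 ISRE cores, at 109, 103 and 84 bases, of which the first 2 overlap.

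Across promoters, the same letters were commoner among genes higher with LPS than among compared genes. An ISRE core was present in 7.13% of all 32851 promoters, in 6.53% of the 9425 promoters of compared genes (7383 of the 10162 genes matched by symbol), in 14.1% of the 624 promoters of higher genes and in 35.8% of the 53 promoters of genes at least 16-fold higher. A kappaB core was present in 0.870% of promoters of compared genes, 3.04% of those of higher genes and 9.43% of those at least 16-fold higher. The AP-1 element was in 4.58%, 10.1% and 17.0% of the same classes. Promoters of lower genes held them in 5.09%, 0.430% and 3.97% of cases. For genes higher after rescaling, the shares were 10.5% for ISRE, 1.91% for kappaB and 6.64% for AP-1. Among all promoters, kappaB was in 0.941% and AP-1 in 6.75%. The classes also differed in base composition: the median ratio of observed to expected CpG was 0.737 over compared genes, 0.526 in higher genes and 0.267 in genes at least 16-fold higher. Over all promoters it was 0.373. A match is a description of the letters and not a binding site.

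Across all 10162 genes, 715 (7.04%) were higher and 4263 (42.0%) were lower in KO LPS, and the median ratio was -0.83. The values are shares of each library's fragments. Cytokine and chemokine genes took 0.954% of summed FPKM in KO naive and 16.7% in KO LPS, and the 715 higher genes together went from 3.41% to 34.0%. When both libraries were rescaled by the median ratio over genes, so that the median gene was set equal, 1653 genes (16.3%) were higher and 1432 (14.1%) lower. All 715 higher genes stayed higher, 1432 of the 4263 lower genes stayed lower, and none changed direction. Genes with ratios between -0.83 and 0 were thus lower as deposited and above the median gene, and for these only values are given. At the edge of the rule, Rars was just inside at 1.0005 and the tumor necrosis factor receptor gene Tnfrsf1b just outside at 0.9995.

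**Figure D1:**
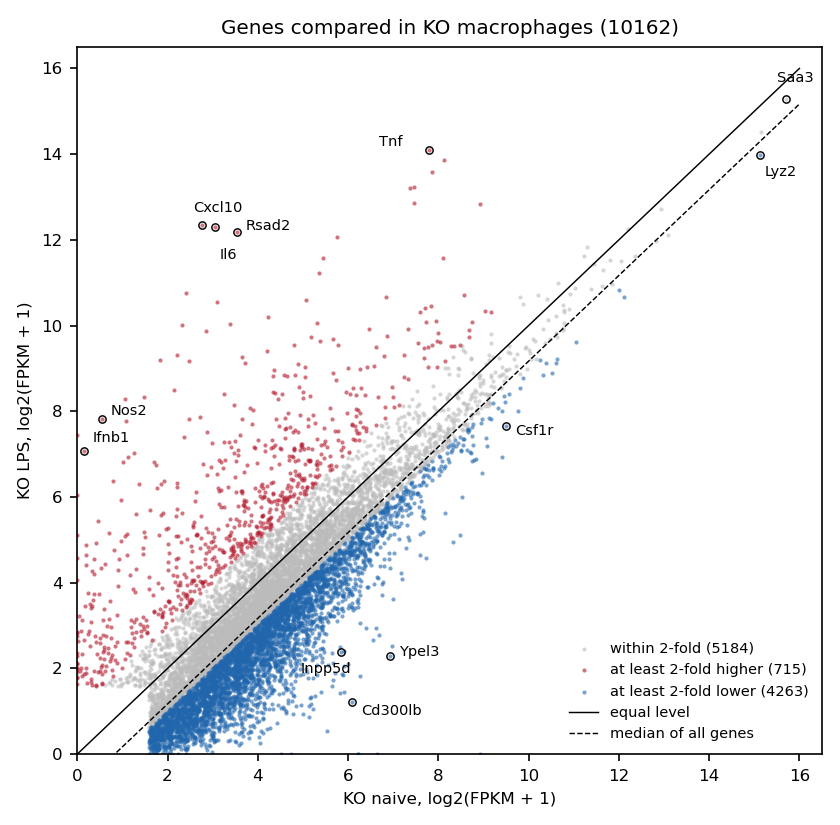
Expression in KO naive (horizontal) and KO LPS (vertical) on log2(FPKM + 1) scales, 1 point per gene, coloured by the 2-fold rule. The solid line marks equal levels and the dashed line the median ratio of all genes, -0.83, so most points lie below the solid line while a smaller set of named cytokine, interferon and antiviral genes lies far above it.

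The higher genes had the wider spread. At least 16-fold differences were found in 85 higher and 21 lower genes, and at least 64-fold differences in 22 higher and 4 lower genes. Those 4 lower genes were small RNA genes or had overlapping deposited intervals. With both kinds left out, the lowest ratio among genes with at least 10 FPKM in either library was -4.98 (Tmem86a). The deposited intervals of the 2 libraries did not overlap for 4958 of the 4978 genes past 2-fold, and for 9173 of all 10162 genes. From below 1 FPKM in KO naive, 31 genes reached at least 10 FPKM in KO LPS, and 3 of them at least 100 FPKM. In the opposite direction, 61 genes went from at least 10 FPKM to below 1 FPKM. Of the 50 most abundant genes in KO LPS, 22 were higher and 3 lower than in KO naive.

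The highest ratio belonged to Cxcl10, a chemokine that attracts activated T cells (mm9 chromosome 5, 92775665 to 92777915), with 5.79 FPKM in KO naive and 5246 FPKM in KO LPS, a ratio of 9.59 [9.35 to 9.89]. Il6, the fever and acute phase cytokine (chromosome 5, 30339701 to 30346508), read 7.32 FPKM and 5013 FPKM, a ratio of 9.24. The antiviral genes Rsad2 (viperin, chromosome 12, 27127608 to 27141317) and Cmpk2 (a mitochondrial nucleotide kinase, chromosome 12, 27154080 to 27164702) lie side by side. Rsad2 went from 10.6 to 4650.2 FPKM (8.65) and Cmpk2 from 4.29 to 1729 FPKM (8.35). Ifit1 and Ifit2, which bind foreign RNA, had ratios of 7.47 and 7.67, with 1509 and 1025 FPKM in KO LPS. All 15 of the highest genes were also at least 2-fold higher in the wildtype pair.

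**Figure D2:**
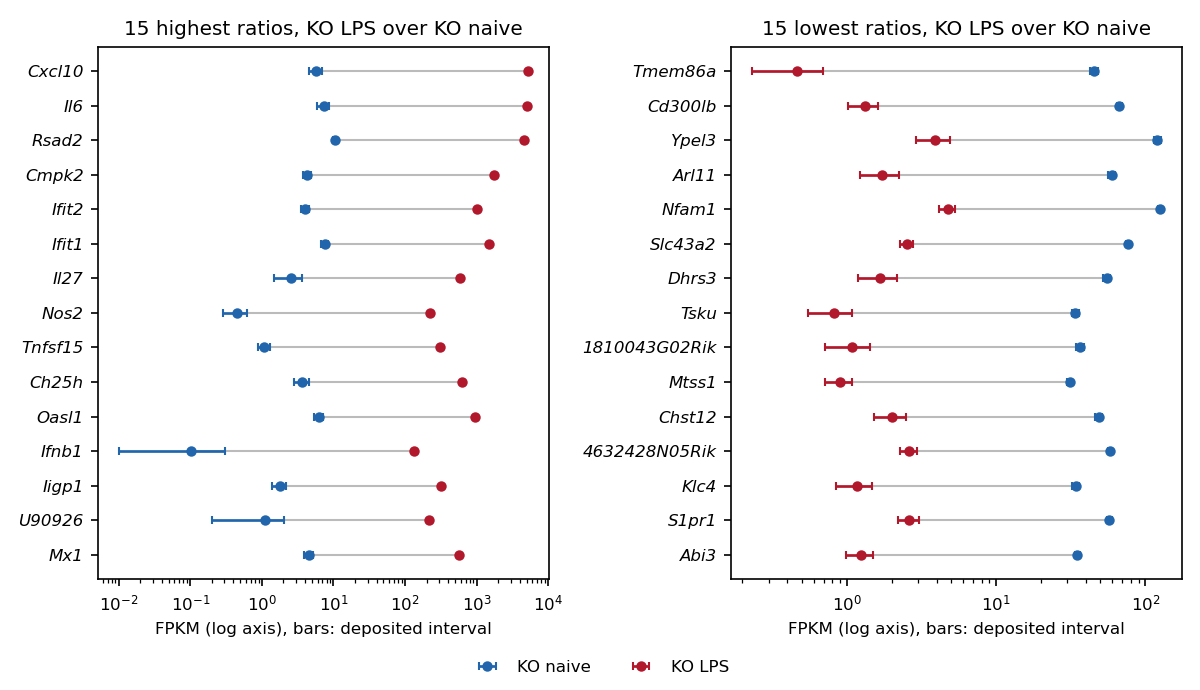
FPKM in KO naive (blue) and KO LPS (red) on a log axis for the 15 genes with the highest and the 15 with the lowest ratios, among genes with at least 10 FPKM in either library. Bars are the deposited intervals, and the lower bound for Ifnb1 in KO naive is 0 and is drawn at the axis minimum. The higher genes rest on 0.103 to 10.6 FPKM in KO naive and reach 134 to 5246 FPKM, and the lower genes go from 31.0 to 125 FPKM down to 0.463 to 4.75 FPKM.

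Receptor and signalling genes were mostly within 2-fold. Of 20 genes of the TLR4 receptor complex, its adaptors and proximal kinases, 3 were higher and 4 lower (7 and 0 after rescaling), with a median of -0.23 beside -0.83 over all genes. The receptor gene Tlr4 itself read 22.3 FPKM in KO naive and 14.6 FPKM in KO LPS, and Ly96 read 57.8 and 50.9 FPKM. The co-receptor gene Cd14 was higher, at 409.5 and 849 FPKM (1.05), as were the adaptor Myd88, at 57.3 and 156 FPKM (1.42), and the ubiquitin ligase Peli1, at 14.4 and 140.4 FPKM (3.20). The kinase Irak1 was lower, at 40.4 and 14.1 FPKM (-1.46). Among 10 other Toll-like receptor genes, 3 were higher and 1 lower (7 and 0 after rescaling): Tlr3, which senses double-stranded RNA, had a ratio of 3.38, Tlr9 of 1.61 and Tlr7 of 1.20, while Tlr13 had -1.40.

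Transcription factors of the pathway were higher more often than genes at large. Of 15 genes of NF-kappaB subunits, inhibitors and kinases, 7 were higher and 0 lower (10 and 0 after rescaling), with a median of 0.55. The nuclear IkappaB protein gene Nfkbiz, a co-activator of secondary cytokine genes, read 13.3 and 269 FPKM (4.24), and the subunit gene Rel 10.4 and 68.3 FPKM (2.61). The inhibitor gene Nfkbia, itself an NF-kappaB target, read 206 and 714 FPKM (1.79). Of 23 immediate early and AP-1 genes, 13 were higher and 4 lower (17 and 2 after rescaling). Myc had a ratio of 3.53 and Junb of 1.57, and Egr2 was among the lower ones, going from 97.2 to 6.63 FPKM (-3.69).

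Negative regulators of the pathway were higher more often than genes at large, and lower less often. Of 26 such genes, 14 were higher and 5 lower (18 and 3 after rescaling), with a median of 1.08. Among all genes, 7.04% were higher and 42.0% lower (16.3% and 14.1% after rescaling). The cytokine signalling inhibitor Socs1 went from 9.53 to 142 FPKM (3.76) and Socs3 from 34.5 to 327 FPKM (3.21). Tnfaip3, the A20 deubiquitinase, read 63.3 and 517 FPKM (3.01). On the lower side, the lipid phosphatase gene Inpp5d (SHIP1) went from 56.2 to 4.23 FPKM (-3.45) and the phosphatase gene Ptpn22 from 16.6 to 1.25 FPKM (-2.96).

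Cytokine genes were mostly higher, and several were among the most abundant transcripts of KO LPS. Of 36 cytokine and growth factor genes, 25 were higher and 3 lower (29 and 2 after rescaling), with a median of 3.32. Tnf, the early inflammatory cytokine, read 219.9 FPKM in KO naive and 17407 FPKM in KO LPS (6.30) and became the third most abundant transcript. Il1b went from 175 to 9595 FPKM (5.77) and Il1a from 175 to 7421 FPKM (5.40). Il27 and Il12b, subunit genes of cytokines that steer T cells, had ratios of 7.36 and 5.58, with 585 and 81.4 FPKM in KO LPS. The anti-inflammatory cytokine Il10 went from 2.04 to 50.5 FPKM (4.08). The 3 lower genes were Tnfsf12 (-2.65), Tnfsf13 (-2.02) and Vegfa (-1.21).

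Chemokine genes were higher more often than genes at large, and a few were lower. Of 12 CXC genes, 7 were higher and 2 lower (7 and 1 after rescaling), and of 12 CC genes, 7 were higher and 1 lower (8 and 0). The neutrophil attractants Cxcl1 and Cxcl2 read 52.8 and 231 FPKM in KO naive and 4254 and 12287 FPKM in KO LPS. Ccl3 and Ccl4, which encode macrophage inflammatory proteins, reached 14826 and 9415 FPKM (5.73 and 5.82), and the monocyte attractant Ccl2 went from 32.4 to 1541 FPKM (5.53). Cxcl13, a B cell attractant made by resident macrophages, was lower, at 430.5 and 169 FPKM (-1.34, and -0.41 after rescaling). Among 10 chemokine, formyl peptide and anaphylatoxin receptor genes, 4 were higher and 4 lower (5 and 2 after rescaling). The lower share was close to the 42.0% of all genes. Ratios ran from Ccrl2 at 3.44 to Cxcr4, which went from 92.9 to 5.30 FPKM (-3.90).

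Interferon beta was higher, and nearly all interferon-stimulated genes were too. Ifnb1, encoding interferon beta, read 0.103 FPKM in KO naive and 134 FPKM in KO LPS (6.94 [6.62 to 7.15]). Of 22 interferon, IRF, JAK and STAT genes, 11 were higher and 4 lower (15 and 0 after rescaling), with a median of 0.87. Stat2 read 12.6 and 106 FPKM (2.98), Irf7 110.5 and 624 FPKM (2.49), Irf1 76.3 and 503 FPKM (2.71) and Irf9 22.9 and 62.2 FPKM (1.41). The genes lower were Irf3 (-1.28), Stat6 (-1.11), Ifnar1 (-1.06) and Tyk2 (-1.03). Of 46 interferon-stimulated antiviral genes, 44 were higher and 0 lower, with a median of 3.65. The exceptions were Ifitm3 (0.50) and Ifi27l2a (-0.33), which already stood at 1186 and 482 FPKM in KO naive. Isg15, a ubiquitin-like modifier, went from 39.7 to 2379.7 FPKM (5.87) and Mx1 from 4.55 to 573 FPKM (6.69).

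The other interferon-linked genes were mostly higher too. Of 16 interferon-inducible GTPase genes, which attack pathogen vacuoles, 14 were higher, with a median of 3.92, among them Iigp1 (6.87) and Gbp5, which went from 17.7 to 1181 FPKM (5.98). Of 17 RNA and DNA sensor genes, 13 were higher and 2 lower (14 and 1 after rescaling). Ifih1 (MDA5) had a ratio of 5.61, and the 2 lower genes were Mavs (-2.03) and Tmem173 (STING, -1.41), the adaptors through which these sensors signal. The Gbp, Ifi20x, Slfn and Oas1 genes have near-identical copies, so the split of fragments among them is uncertain.

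**Figure D3:**
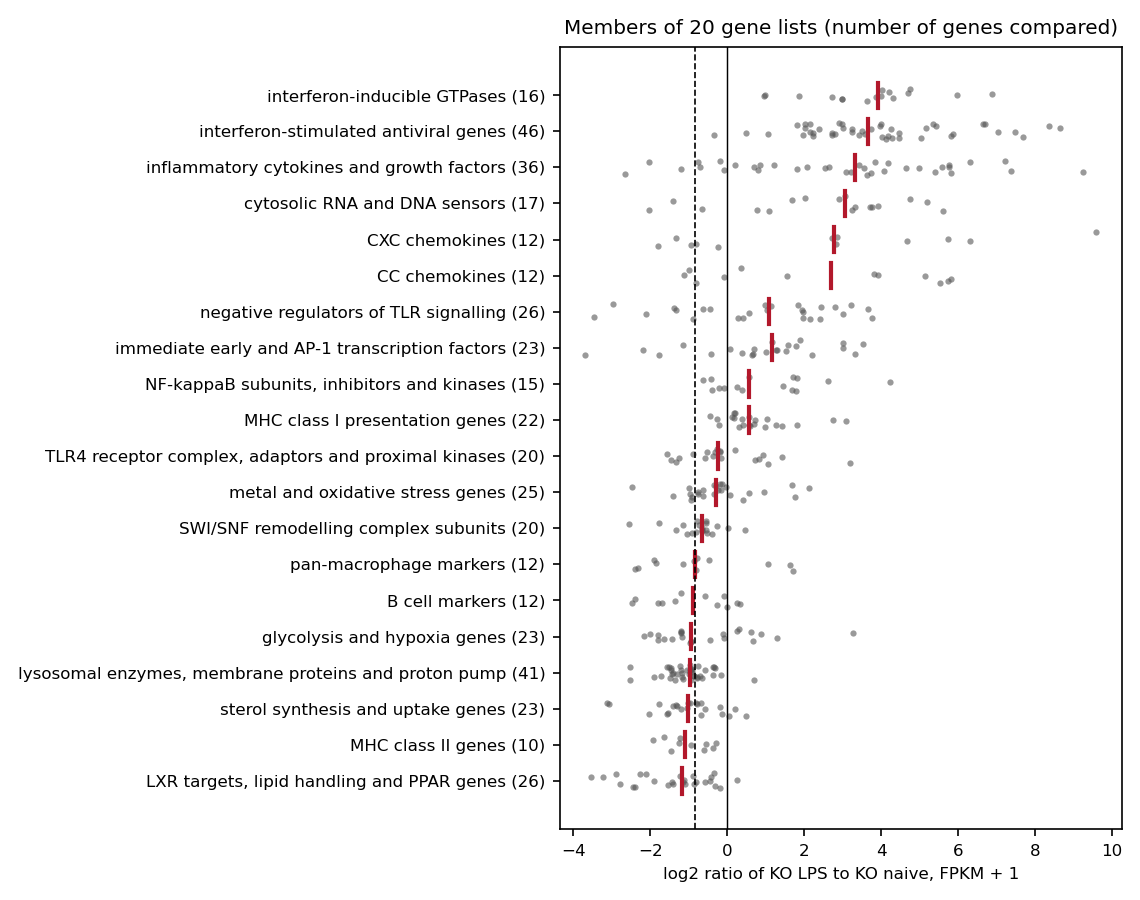
Log2 ratios of KO LPS to KO naive (FPKM + 1) for the members of 20 gene lists, 1 point per gene, with the number of genes compared in brackets and the list's median as a red bar. The solid line is 0 and the dashed line the all-gene median of -0.83, and the lists run from interferon-inducible GTPases (median 3.92) to LXR target and lipid genes (median -1.19).

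Effector enzyme genes included large differences in both directions. Of 20 genes for nitric oxide, prostanoid, itaconate and oxysterol enzymes, 9 were higher and 7 lower, and 10 and 3 after rescaling. The lower share was under the 42.0% of all genes, and close to their 14.1% after rescaling. The higher share was above the 7.04% and 16.3% of all genes. Nos2, which makes nitric oxide, went from 0.453 to 225 FPKM (7.28 [7.10 to 7.47]), and Ch25h, which makes 25-hydroxycholesterol, from 3.66 to 630.1 FPKM (7.08). The prostaglandin synthase gene Ptgs2 went from 42.7 to 3032 FPKM (6.12) and the itaconate enzyme gene Irg1 from 274 to 3049.8 FPKM (3.47). The constitutive counterpart of Ptgs2, Ptgs1, was lower, at 19.7 and 2.49 FPKM (-2.57), as were the leukotriene genes Ltc4s (-2.59) and Alox5ap (-1.92), the latter within 2-fold after rescaling (-0.99).

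Survival, inflammasome and costimulatory genes showed further contrasts. Of 24 apoptosis and survival genes, 10 were higher and 1 lower (15 and 0 after rescaling), with Pim1 at 3.44 and Cflar at 2.50. Bcl2a1a, Bcl2a1b and Bcl2a1d were also higher (2.04 to 2.35), but they are near-identical copies. Of 12 inflammasome genes, 4 were higher and 5 lower (4 and 2 after rescaling), beside 7.04% higher and 42.0% lower among all genes. Their lower share was thus close to that of all genes. The sensor gene Nlrp3 went from 27.4 to 458 FPKM (4.02), while the adaptor gene Pycard went from 60.0 to 11.2 FPKM (-2.32). Of 14 costimulatory and checkpoint genes, 7 were higher and 3 lower (10 and 2 after rescaling), with Cd40, the receptor of T cell help, going from 19.5 to 499 FPKM (4.61).

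Antigen presentation genes differed by class. Of 22 MHC class I presentation genes, 6 were higher and 0 lower, and 19 were higher after rescaling, with a median of 0.56. The class I transactivator gene Nlrc5 read 7.64 and 72.7 FPKM (3.09) and the peptide transporter gene Tap1 27.2 and 187 FPKM (2.74). Of 10 MHC class II genes, 0 were higher and 5 lower, with a median of -1.09, close to all genes, and 1 was lower after rescaling. The class II transactivator gene Ciita read 12.6 and 4.81 FPKM (-1.23).

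Lower genes covered lipid handling, lysosome and respiration, at shares near or moderately above the 42.0% of all genes. Of 26 LXR target, lipid and PPAR genes, 16 were lower and 0 higher, and 8 were lower after rescaling against 1 higher. The cholesterol exporter genes Abca1 (47.6 to 8.29 FPKM, -2.39) and Abcg1 (17.9 to 2.92 FPKM, -2.27) were among them, as was Scd2, a fatty acid desaturase gene (15.9 to 0.447 FPKM, -3.54). Of 23 sterol synthesis genes, 12 were lower and 0 higher, but 3 and 2 after rescaling, led by Dhcr7 (-3.12) and Mvd (-3.08).

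Lysosomal genes were lower in 19 of 41 cases, but in 2 after rescaling, and their share of FPKM went from 3.77% to 2.02%. The lysosomal master regulator gene Tfeb read 19.4 and 2.55 FPKM (-2.52). Of 78 respiratory chain and ATP synthase genes, 44 were lower as deposited and 2 after rescaling, and of 75 mitochondrial ribosomal genes, 37 and 5. Of 77 cytosolic ribosomal protein genes, 1 was lower. Of 23 glycolysis and hypoxia genes, 10 were lower and 2 higher, a lower share close to that of all genes, and after rescaling 2 were lower and 7 higher, with Adm at 3.26 and the glucose transporter gene Slc2a6 at 1.29.

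Myeloid transcription factor genes were not lower more often than the 42.0% of all genes. Of 21 such genes, 7 were lower and 2 higher (4 and 7 after rescaling). The lineage factor Cebpa read 102 and 5.88 FPKM (-3.90) and the nuclear receptor partner Rxra 32.4 and 5.16 FPKM (-2.44). Among macrophage markers, Csf1r went from 721.9 to 201 FPKM (-1.84, and -0.91 after rescaling) and the Fc receptor gene Fcgr3 from 499 to 94.0 FPKM (-2.40).

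The genes with the 15 lowest ratios were each at least 2-fold lower in the wildtype pair as well. They included Tmem86a, an enzyme gene of plasmalogen breakdown (45.3 to 0.463 FPKM, -4.98, the lowest of the 15), the myeloid receptor gene Cd300lb (66.8 to 1.32 FPKM, -4.87) and S1pr1, a sphingosine-1-phosphate receptor gene (57.4 to 2.62 FPKM, -4.01). The checkpoint gene 4632428N05Rik (VISTA) read 58.0 and 2.61 FPKM (-4.03).

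Chromatin genes were mostly near the all-gene median. Of 20 SWI/SNF remodelling genes, 5 were lower and 0 higher, and 1 each after rescaling. The catalytic subunit gene Smarca4, a reported miR-222 target, read 18.2 FPKM in KO naive and 18.4 FPKM in KO LPS, a ratio of 0.01 [-0.11 to 0.13]. The alternative catalytic subunit gene Smarca2 read 14.9 and 1.70 FPKM (-2.56). After rescaling, the KO ratios were 0.90 for Smarca4, still within 2-fold, and -1.81 for Smarca2. In the wildtype pair Smarca4 read 17.1 and 11.7 FPKM. Its WT ratio was -0.51 as deposited, within 2-fold and above the WT median of -0.74 over all genes. Of 36 histone and DNA modifying enzyme genes, 2 were higher, the demethylase gene Kdm6b (3.29) and Setdb2 (2.86), and 11 were lower, a smaller share than the 42.0% of all genes, with Hdac5 at -3.46 and Dnmt1 at -2.86. After rescaling 9 were higher and 6 lower. Of 13 reported targets of miR-221/222, 0 were higher and 6 lower (2 and 2 after rescaling), beside 42.0% of all genes lower. Among the 6 was the cell cycle inhibitor gene Cdkn1b, a classical target, at 26.5 and 7.74 FPKM (-1.65, and -0.78 after rescaling).

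In the wildtype pair, 844 of 10263 genes (8.22%) were higher and 4080 (39.8%) lower, with a median of -0.74. Over 10489 genes measurable in all 4 libraries, 520 were higher in both pairs, which is 72.3% of those higher in KO and 60.8% of those higher in WT. For lower genes, 3242 were shared, 74.8% of those in KO and 79.0% of those in WT. The pairs share no library, and the difference between genotypes cannot be tested with 1 library per group. Among the 520 shared higher genes, 383 (73.7%) stood higher in KO naive than in WT naive, beside 45.9% of the 10489 genes, and 419 (80.6%) had KO and WT LPS levels within 2-fold of each other, beside 93.7%.

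Cytokine and chemokine genes often stood higher in KO naive than in WT naive. Of 61 such genes measurable in all 4 libraries, 29 (47.5%) were at least 2-fold higher in KO naive, beside 3.98% of all genes, and 21 (34.4%) were so and also had LPS levels within 2-fold, beside 2.70%. Tnf stood at 219.9 FPKM in KO naive and 28.7 FPKM in WT naive, and at 17407 and 13818 FPKM with LPS. Il1b stood at 175 FPKM in KO naive and 10.2 FPKM in WT naive, so its ratio was 5.77 in KO and 10.44 in WT, though LPS levels were 9595 and 15482 FPKM. For the neutrophil attractant Cxcl3 the naive levels were 207 and 7.82 FPKM and the ratios 2.71 and 8.56.

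Other genes with a higher KO naive level did not pass 2-fold in the knockout pair as deposited. Saa3, an acute phase protein gene and the most abundant transcript of both knockout libraries, read 53305 and 40025 FPKM in KO naive and KO LPS and 10567 and 34694 FPKM in the wildtype pair. The complement gene Cfb read 2798 and 2781 FPKM in KO against 167 and 538 FPKM in WT, so its LPS levels differed between genotypes as well. The lectin receptor gene Clec4e, the formyl peptide receptor gene Fpr2 and the haem oxygenase gene Hmox1 had ratios of 0.54, 0.42 and -0.17 in KO and 3.73, 4.30 and 1.69 in WT. After rescaling, the KO ratio of Clec4e was 1.475, past 2-fold, and those of Saa3 and Cfb were 0.52 and 0.93. Of 25 metal and oxidative stress genes, 3 were higher in KO and 11 in WT, beside 7.04% and 8.22% of all genes. After rescaling, 6 of them were higher in KO, and the rescaled WT count is not given here. Of 327 genes higher in WT and within 2-fold in KO, 87 (26.6%) were at least 2-fold higher in KO naive than in WT naive, the share being close to that of all 855 genes higher in WT (223, 26.1%). The KO naive library enters both the naive comparison and the KO ratio.

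**Figure D4:**
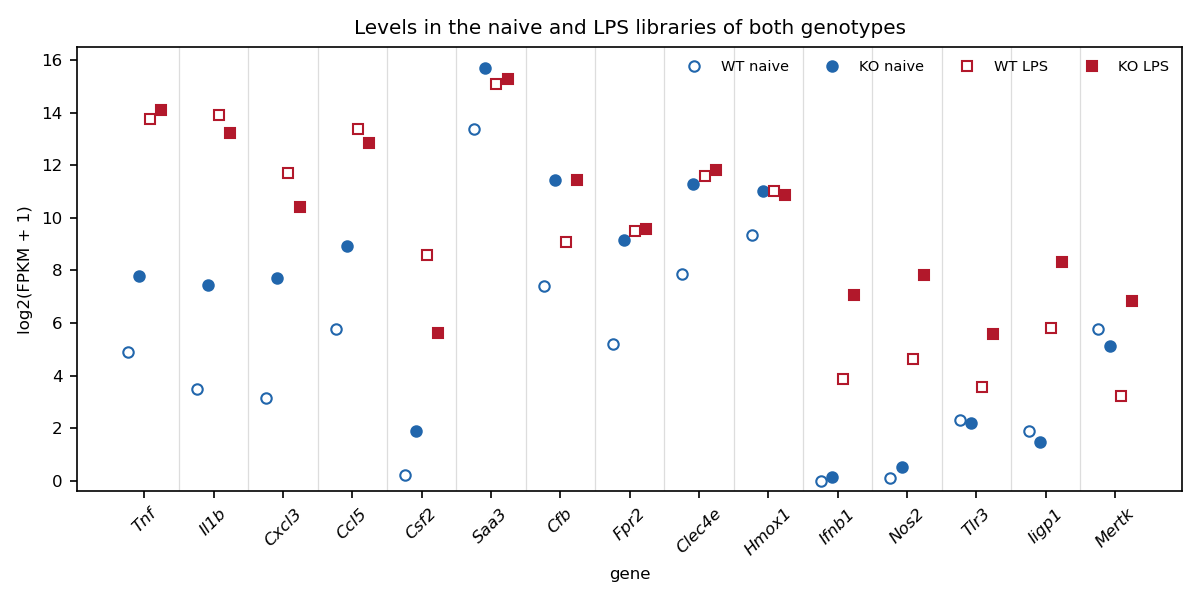
Levels as log2(FPKM + 1) of 15 genes, chosen after their values were seen, in the naive (blue circles) and LPS (red squares) libraries of WT (open) and KO (filled). From Tnf to Hmox1 the KO naive point lies above the WT naive point, and from Ifnb1 to Mertk the KO LPS point lies above the WT LPS point.

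Some genes had the larger ratio in the knockout, and examples follow. Of the 520 genes higher in both pairs, 294 had the smaller ratio in KO. Higher in KO and within 2-fold in WT were 196 genes, beside 327 for the reverse. Ifnb1 reached 134 FPKM in KO LPS and 13.5 FPKM in WT LPS, where WT naive was listed at 0. Nos2 reached 225 FPKM in KO LPS and 23.5 FPKM in WT LPS, and Iigp1 323 and 54.7 FPKM. Tlr3, Tlr7 and Tlr9 were each higher in KO, with WT ratios of 1.28, -0.23 and -0.04. The lineage factor genes Irf8 and Maf had ratios of 1.00 and 1.39 in KO and -0.87 and -0.78 in WT. Mertk, a receptor for the uptake of dying cells, went from 34.2 to 114 FPKM in KO (1.71 [1.62 to 1.81]) and from 53.5 to 8.37 FPKM in WT (-2.54).

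**Figure D5:**
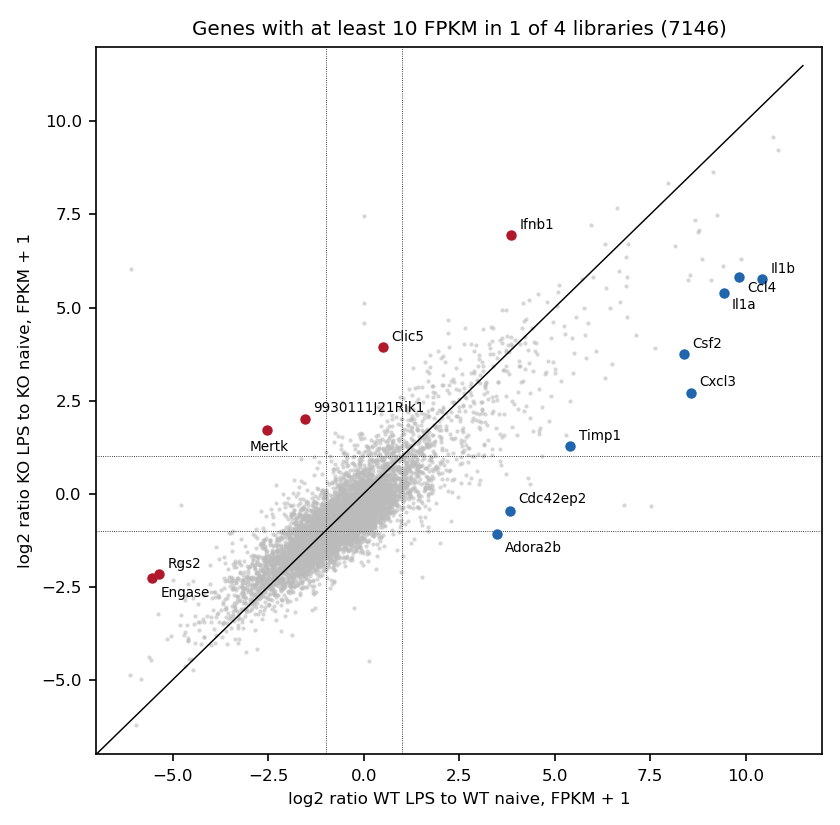
Log2 ratios of LPS to naive (FPKM + 1) in WT (horizontal) and KO (vertical) for 7146 genes with at least 10 FPKM in 1 of the 4 libraries, with the line of equal ratios and dotted lines at 2-fold. Named points are those with the largest difference between pairs that were compared in both, with Ifnb1, Clic5 and Mertk above the line and Cxcl3, Il1b and Csf2 below it.

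Markers of other cells were measured beside these values. B cell markers were present, with Cd79a at 171 FPKM in KO naive. Of 12 compared, 0 were higher and 6 lower (2 and 2 after rescaling), beside 42.0% of all genes lower. Their summed level went from 736 to 399 FPKM. Of 14 neutrophil markers 5 were compared, none was higher, all listed markers summed to 272 and 204 FPKM, and the granule genes Ngp and Ltf were listed at 0 in both knockout libraries. Of 9 mast cell markers 6 were compared, with sums of 131 and 141 FPKM, and only Hdc, the histamine-forming enzyme, was higher (1.08 to 33.3 FPKM). Of 8 dendritic cell markers 5 were compared and 3 were higher, Bst2, Ccr7 and Xcr1, with sums of 369 and 617 FPKM. Of 10 platelet and erythroid markers 4 were compared, with sums of 1778 and 1007 FPKM in KO naive and KO LPS and 619 and 1125 FPKM in the wildtype pair, most of it from the platelet chemokine gene Pf4 (1724 and 977 FPKM in the knockout libraries). The platelet glycoprotein genes Itga2b and Gp9 read at most 0.141 FPKM there. T and NK cell, eosinophil, and mesothelial and fibroblast markers summed to at most 18.6 FPKM in either knockout library. The part of these cells in the differences was not tested.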

How the data were processed

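Poly-A RNA libraries of peritoneal macrophages were sequenced, 1 per group. The authors deposited 1 table per library with FPKM values and lower and upper interval bounds per gene, per the file headers. The tools listed were bcl2fastq 1.8.4, TopHat and Cufflinks, with the genome build mm9, per the submitters' processing notes. Their other versions, the annotation and any pooling: not given in the sources used here. The members and gene lists were chosen with earlier results of these data known.

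Rows not marked OK in a knockout library (304), 712 rows of 248 symbols at several loci, and 12704 rows under 2 FPKM in both were left out. The compared rows held 97.9% and 98.2% of FPKM, which summed to 635180 in KO naive and 604885 in KO LPS. Interval half-widths had medians of 16.1% and 14.8% at 2 to 5 FPKM and 5.99% and 5.33% from 10 FPKM. FPKM is scaled to each library's fragments, so a gain in a few abundant genes lowers the values of the rest. Read counts were not used here.

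Ratios were log2(FPKM + 1) differences with a pseudocount of 1, which understates those of low genes, and the rule was 2-fold. Rescaling divided each library by its median of ratios (1.38 for KO naive, 0.722 for KO LPS). Named genes were the 15 highest and 15 lowest ratios with at least 10 FPKM in a knockout library, intervals apart and small RNA genes left out, the 10 most abundant of each library, up to 4 members with the largest difference and the most abundant one of each of 55 lists, the 8 largest differences between pairs in each direction, and Smarca4, Mir221, Mir222, Tnf, Il6, Il12b, Nos2, Ifnb1, Cxcl10, Stat2 and Irf9. Other list members are given beside their list's counts. Promoters and microRNAs came from RefSeq tables, and gene coordinates are those of the deposited tables (mm9). Alternatives were rescaling, a pseudocount of 0.1, minimums of 10 FPKM and none, intervals apart, small RNA genes left out and symbols summed over loci. Scripts used Python 3.11.15, pandas 2.3.3, numpy 2.4.6 and matplotlib 3.10.9, and the fold rule was tested on simulated data.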

Additional observations from a re-analysis of the deposited data

Results flagged for a closer look

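For 8 genes the knockout and wildtype pairs passed 2-fold in opposite directions with at least 10 FPKM in 1 of the 4 libraries, small RNA genes left out. With 1 library per group the differences were not tested. The difference between pairs (KO minus WT log2 ratio) was 4.25 for Mertk, an uptake receptor gene, and 3.56 for 9930111J21Rik1, which were higher in KO and lower in WT. It was -4.56 for the adenosine receptor gene Adora2b, -3.32 for Mmd, -2.69 for the glycine transporter gene Slc6a9, -2.68 for the lipid phosphatase gene Ppap2a, -2.56 for the endothelin receptor gene Ednrb and -2.55 for Artn, a neurotrophic factor gene, which were lower in KO and higher in WT. Adora2b read 13.2 and 5.73 FPKM in KO naive and KO LPS and 1.74 and 29.7 FPKM in WT. Mmd read 10.8 and 3.69 FPKM in KO and 21.2 and 87.4 FPKM in WT. Among the genes lower in KO, the lowest KO ratio was -1.66 (Slc6a9), beside the all-gene median of -0.83. After rescaling, the KO ratio of Adora2b was -0.24, within 2-fold, so its lower call in KO depended on the scaling. The KO ratios of Mertk and 9930111J21Rik1 stayed past 2-fold, at 2.63 and 2.89. Rescaled values of the other genes lower in KO are not given here.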

How the results depend on the processing

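Rescaling by the median of ratios moved most counts: 1653 genes were higher and 1432 lower in the KO pair (median 0.0003677), 1859 and 1895 in the WT pair, 1208 higher and 1084 lower in both, and 7 opposite. Adora2b, flagged above, was not among those 7. With a pseudocount of 0.1, 23 genes were opposite, against 11 with a pseudocount of 1. With a minimum of 10 FPKM, 2614 genes were lower in KO, 2436 in WT and 2039 in both, with fewer genes compared. With no minimum the KO median was -0.03169. The other summary values stayed within 1.5 times under these settings, with intervals apart, without small RNA genes and with symbols summed over loci. Of 277 named genes, 43 fell within 2-fold and 10 passed it after rescaling, and 4 passed it with the smaller pseudocount. None past 2-fold went past it in the opposite direction. Some genes within 2-fold changed sign after rescaling, such as Saa3 (-0.41 to 0.52) and Fth1 (-0.63 to 0.31). With a minimum of 10 FPKM, 3 list medians moved: CC chemokines, costimulatory genes and TRIM genes. No paired analysis was possible because each group has 1 library, and no library could be left out. Intervals cover counting error only, and differences between animals, cultures or preparations are not measured.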
